A study of Mus musculus with 8 samples.

Results

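The 10 genes described here encode the histone acetyltransferases CBP (Crebbp), p300 (Ep300), GCN5 (Kat2a), PCAF (Kat2b), MOZ (Kat6a), MORF (Kat6b), HBO1 (Kat7), MOF (Kat8) and HAT1 (Hat1), with BRPF1 (Brpf1), the scaffold of the MOZ and MORF complexes. They were taken by name, with earlier results of these data known, and were found as 10 of the 37980 gene rows of the expression table. All 10 were high enough in both groups to be tested. RNA was sequenced from multipotent progenitors (MPPs) of C57BL/6 mouse bone marrow, sorted as Lin-CD48-ckit+Sca1+CD135+CD150- cells with 1000 cells per library. NA MPPs came from NA LSL/+; Vav-Cre mice, in which blood cells express the NUP98-HOXA10hd fusion (NA) from the Rosa26 locus once Cre, driven by the Vav promoter, has removed a stop cassette. WT MPPs came from age-matched CD45.2 wild-type mice. Whether those carried Cre or the LSL allele, the ages, and whether the libraries of a group came from separate mice are not given in the sources used here, so the p-values measure the spread between these libraries, which may be technical. Each group had 4 libraries, named NA1 to NA4 and WT1 to WT4. The comparison of NA with WT MPPs addresses how the fusion changes gene expression in these progenitors.

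Histone acetyltransferases move an acetyl group from acetyl-CoA to lysines of histone tails. Acetylated lysines carry no positive charge and are bound by bromodomain and YEATS proteins, and deacetylases remove the mark. CBP and p300 are large, closely related co-activators that sit at enhancers and bind many transcription factors, among them CREB and MYB. GCN5 and PCAF work inside the SAGA and ATAC complexes. MOZ, MORF, HBO1 and MOF belong to the MYST family and act in complexes with scaffold and reader subunits. HAT1 acetylates newly made histone H4 before it is placed on DNA. CBP and MOZ are needed by blood stem cells, and the N-terminal repeats of NUP98, which the fusion keeps, are known to bind CBP and p300.

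Values are normalised counts, that is RSEM expected counts divided by 1 size factor per library, and figures after ± are SDs over the 4 libraries of a group. The 8 libraries held between 3876906 and 4916987 estimated reads. Hoxa10, whose homeodomain is part of the fusion, averaged 324 ± 32 in NA and 139 ± 8 in WT MPPs (n = 4 each). This count cannot separate the fusion from the endogenous gene. Of the genes of the gate, Kit and Flt3, which encode c-kit and CD135, were high in every library (1103 to 1498) and overlapped between the groups. Slamf1, which encodes CD150, was low in both groups, between 3.69 and 47.9. Ly6a, the Sca1 gene, did not overlap and was lower in NA MPPs (1221 to 1408 against 1482 to 1614, log2 fold change -0.28, limma adjusted p = 0.0257). Cd48, which the sort selects against, was likewise lower in NA (12.2 to 22.4 against 34.2 to 83.8, log2 fold change -1.58, limma adjusted p = 0.00712). Cd3e, Ms4a1 and Ly6g, markers of T cells, B cells and granulocytes, were at 0 in all 8 libraries. Each of these cell types also had at least 1 marker that was above 0 in some library. Summed markers were lower in NA than in WT MPPs for erythroid cells (31.9 to 63.0 against 145 to 287 over 6 markers, 1 at 0) and for granulocytes and monocytes (3139 to 3376 against 3579 to 4570 over 9 markers, 2 at 0). The sums overlapped for T cells (0.94 to 13.9 against 7.93 to 21.6 over 4 markers, 3 at 0). They also overlapped for B cells (2.36 to 13.2 against 2.66 to 7.10 over 4 markers, 2 at 0). Megakaryocyte sums overlapped too (163 to 268 against 192 to 265 over 4 markers). For mast cells and basophils the overlap was narrow, with the NA range higher (17.9 to 26.1 against 1.14 to 18.6 over 4 markers, 2 at 0). The part of these differences in the results below was not tested. In a bulk sample, fewer cells of a type and less RNA per cell cannot be told apart. Xist was at 1104 ± 173 in WT and 1.92 ± 1 in NA MPPs while the Y-linked Ddx3y, Eif2s3y, Kdm5d and Uty were detected almost solely in NA, so genotype and the sex of the mice cannot be told apart. All 10 acetyltransferase genes are autosomal, and whether sex affected their values was not tested.

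The fourth library of each group lay closer to the mean of the other 3 than any other library did. The SD of its log2 differences from the mean of the other 3 libraries was 0.185 for NA4 and 0.129 for WT4, against 0.231 to 0.330 for the other 6 libraries. In 62.9% of genes for NA4 and 74.9% for WT4 the value lay between those of the other 3 libraries, against 37.8% to 53.3% elsewhere. The tests treat the libraries of a group as independent, and whether the fourth libraries are independent of the others was not tested. Both were kept as labelled, and calls and pair ratios are also given without them.

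For the genes on which the results turn, stretches of the RefSeq promoter windows (assembly GRCm38.p6, which shares coordinates with mm10) show the sequence at the start of the gene. Crebbp and Ep300 are shown because they are the closely related pair on which the results turn most, and Brpf1 and Kat8 because they carried the next rise and the fall. Capitals mark matches, on either strand, to 1 of the motifs searched: the GC box GGGCGG, the CCAAT box CCAAT, the core TGACG and full TGACGTCA cAMP response element, the AP-1 sites TGACTCA and TGAGTCA, the ETS site CCGGAAG, the HOX and MEIS site TGATTTAT, and the EGR sites GCGTGGGCG and GCGGGGGCG.
Crebbp, chr16:4213410-4213439, minus strand: cggcggccggGGGCGGGCGGtgagcgctgc
Ep300, chr15:81586178-81586207, plus strand: tccccctttttCGCCCCCGCctccttgtgg
Brpf1, chr6:113306887-113307136, plus strand: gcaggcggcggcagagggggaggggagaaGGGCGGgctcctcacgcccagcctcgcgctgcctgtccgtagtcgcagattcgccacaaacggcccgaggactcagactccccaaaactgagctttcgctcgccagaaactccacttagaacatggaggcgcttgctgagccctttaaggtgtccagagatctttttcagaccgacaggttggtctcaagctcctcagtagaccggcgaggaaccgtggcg
Kat8, chr7:127912267-127912515, plus strand: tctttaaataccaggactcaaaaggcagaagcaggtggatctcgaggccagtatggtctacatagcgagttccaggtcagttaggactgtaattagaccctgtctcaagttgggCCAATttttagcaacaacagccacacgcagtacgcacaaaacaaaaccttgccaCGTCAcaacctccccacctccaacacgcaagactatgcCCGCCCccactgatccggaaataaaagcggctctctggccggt

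The Crebbp stretch holds 2 overlapping GC boxes and the Ep300 stretch an EGR site. The Brpf1 stretch holds a GC box far upstream of the start, and the Kat8 stretch a CCAAT box, a core cAMP response element and a GC box. Only 30 bases of Crebbp and Ep300 are shown because GENCODE M21 starts these genes 593 and 863 bases upstream of the RefSeq start. This places the windows inside the annotated genes. Over its 300 bases, the Crebbp window was 82.0% G and C with 49 CpG pairs, the Ep300 window 72.3% with 30, the Brpf1 window 61.7% with 25 and the first Kat8 window 53.0% with 12. The median of all 32851 mouse promoter windows was 52.7% with 7 CpG pairs.

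RefSeq gave 12 windows for 9 of the 10 genes, since Kat2b, Kat6b and Kat8 each have a pair of starts. The Kat6b windows, from 21499520 and from 21499535, overlap almost fully, so the same GC boxes are counted in both. Both Kat8 windows also hold a GC box, so the counts are of windows and not of genes. The GC box was found in 8 of the 12 windows and in 35.7% of all windows, the CCAAT box in 5 (37.4% of all), the core cAMP response element in 4 (20.8%), the ETS site in 3 (8.86%), the AP-1 sites in 2 (5.20%) and the EGR sites in 1 (3.47%). The full cAMP response element and the HOX and MEIS site were found in 0 of the 12 windows, against 1.79% and 0.977% of all windows. These matches describe letters within each window only.

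Crebbp was the acetyltransferase gene with the widest difference between the groups. The gene (ENSMUSG00000022521) lies on chr16:4081328-4213997, minus strand, and encodes CBP. It was at 93.4, 135, 103 and 148 normalised counts in NA1 to NA4 and at 45.3, 51.0, 25.1 and 41.7 in WT1 to WT4. The lowest NA library was above the highest WT library. The means were 120 ± 25.9 and 40.8 ± 11.1, a 2.94-fold ratio and a log2 fold change of 1.55 (SE 0.256, limma adjusted p = 0.0011, with adjustment over the 11451 genes tested). Log2 fold changes are differences of mean log2(normalised count + 1), which shrinks those of low genes. That of Crebbp ranked 194 of 11451 from the highest. These counts rest on 22 to 144 estimated reads per library, 480 in all NA and 165 in all WT libraries. The rise passed in all 19 alternative settings, with log2 fold changes from 1.34 to 1.67. Without the fourth libraries Crebbp was at 110 ± 22.1 against 40.4 ± 13.6 (SDs, n = 3 each). Its log2 fold change was then 1.47 (limma adjusted p = 0.0261).

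Ep300, the gene of the partner enzyme p300, differed between the groups by less than the spread of the libraries. The gene (ENSMUSG00000055024) lies on chr15:81585351-81652077, plus strand. It was at 84.0, 111, 81.3 and 100.4 in NA1 to NA4 and at 100.3, 105, 76.3 and 109 in WT1 to WT4. The groups overlapped throughout, with means of 94.1 ± 14 and 97.8 ± 14.8. The log2 fold change was -0.05 (SE 0.191, limma adjusted p = 0.88), and it was 0.01 without NA3 and 0.0047 without WT4. Ep300 shares 54 exonic bases with the microRNA gene Gm23880, which was at 0 in both groups.

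**Figure D1:**
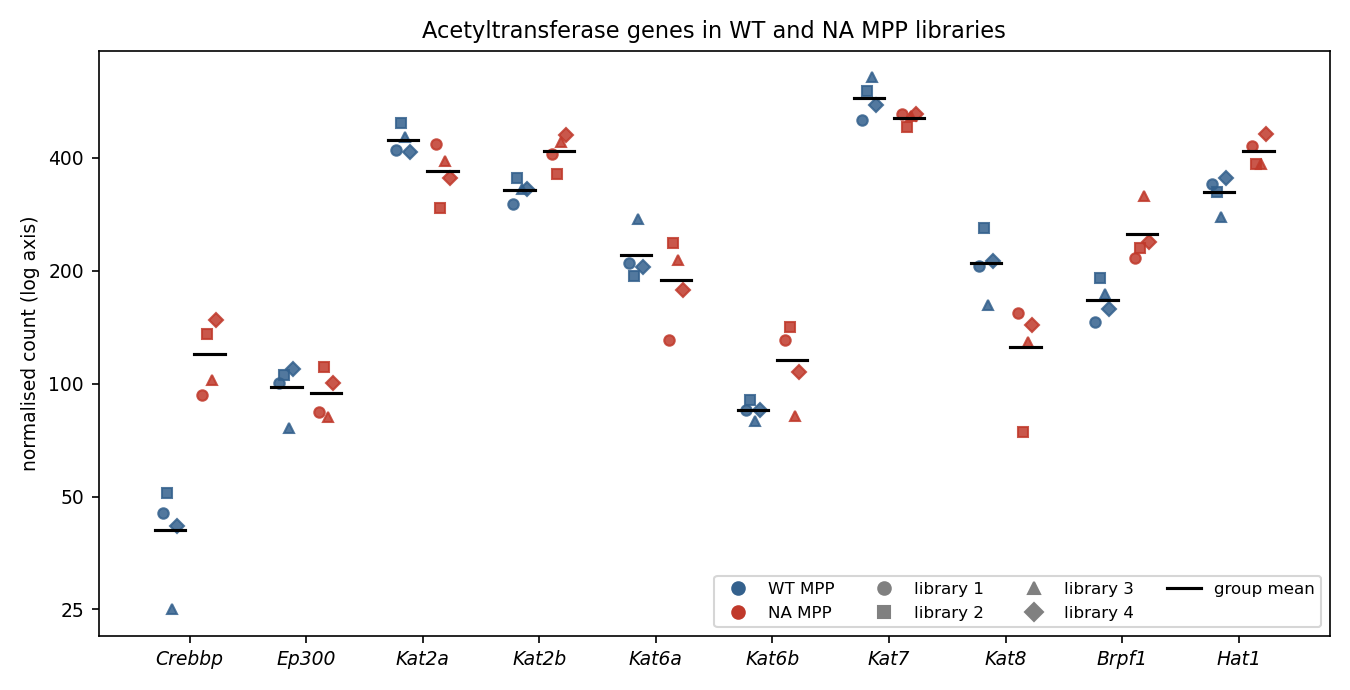
Normalised count of each acetyltransferase gene (log axis) in each WT and NA MPP library, with a bar at the group mean. Crebbp, Kat2b, Brpf1 and Hat1 were higher in every NA library than in any WT library, Kat8 was lower, and the other 5 genes overlapped.

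Of the 10 genes, 4 rose and 1 fell in NA MPPs at a limma adjusted p below 0.05, which is 50% against 17.9% of all genes tested (10.1% higher and 7.87% lower). The groups did not overlap in the same 5 genes, 4 with NA above WT and 1 below, against 22% of all genes (11.5% above and 10.5% below). The median log2 fold change of the 10 genes was 0.14, and that of all genes was -0.01. Without the fourth libraries 1 of the 10 genes, Crebbp, passed, while the number over all genes went from 2053 to 515.

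Kat2a and Kat2b encode GCN5 and PCAF, which can replace each other as the acetyltransferase of SAGA and ATAC. Kat2b (chr17:53566861-53672720, plus strand) was at 409, 362, 441 and 459 in NA1 to NA4 and at 302, 355, 330 and 329 in WT1 to WT4. Every NA library was above every WT library, though NA2 and WT2 were close. The means were 418 ± 42.8 and 329 ± 21.5, with a log2 fold change of 0.34 (SE 0.112, limma adjusted p = 0.048). The call held in 7 of 19 alternative settings. It was lost without any 1 of NA1, NA3, NA4, WT1, WT3 and WT4 (limma adjusted p from 0.0603 to 0.154) and without the fourth libraries (0.3, log2 fold change 0.29). With all libraries kept, it was also lost without a filter on low values (0.0599), with the replicate number as a block (0.0685), without a variance trend (0.0852), with total-count scaling (0.1001, log2 fold change 0.27) and with the GC trend removed (0.116, log2 fold change 0.26). Kat2a (chr11:100704746-100712465, minus strand) was at 435, 293, 391.5 and 354 in NA1 to NA4 and at 420, 496, 455 and 414 in WT1 to WT4. Only NA1 reached into the WT range. The means were 369 ± 60.0 and 446 ± 37.9, and the log2 fold change of -0.29 (SE 0.128) did not pass (limma adjusted p = 0.136).

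Kat6a and Kat6b encode MOZ and MORF, large MYST enzymes that share BRPF1 and its relatives as scaffold. Kat6a (chr8:22859535-22943259, plus strand) was at 131, 237, 213 and 177 in NA1 to NA4 and at 210, 194, 274 and 205 in WT1 to WT4. The groups overlapped, and NA1 was the lowest library. The log2 fold change was -0.24 (SE 0.184, limma adjusted p = 0.39). Kat6b (chr14:21481434-21672478, plus strand) was at 131, 142, 82.2 and 108 in NA1 to NA4 and at 85.2, 90.6, 79.7 and 85.2 in WT1 to WT4. Here 3 NA libraries were above all WT libraries and NA3 lay within them. The log2 fold change was 0.41 (SE 0.197, limma adjusted p = 0.168), and it passed in 1 setting, without NA3 (0.56, limma adjusted p = 0.046).

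Brpf1, whose protein joins MOZ, MORF or HBO1 to ING5 and MEAF6 and reads histone marks, rose in NA MPPs. The gene (chr6:113307137-113324860, plus strand) was at 217, 230.3, 316 and 239 in NA1 to NA4 and at 146, 191, 173 and 158 in WT1 to WT4. The groups did not overlap, and NA3 was the highest library. The means were 250.3 ± 44.6 and 167 ± 19.8, with a log2 fold change of 0.57 (SE 0.152, limma adjusted p = 0.0185). The call held in 15 of 19 alternative settings and was lost without NA4 (limma adjusted p = 0.0501), WT1 (0.0541) or WT4 (0.0597) and without both NA4 and WT4 (0.136, log2 fold change 0.57). Brpf1 shares 255 exonic bases with the antisense gene Gm15492, which averaged 0 in NA and 1.64 in WT MPPs. Strand use in counting is not given in the sources used here, so reads in such shared bases cannot be assigned to 1 gene.

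Kat8, which encodes MOF, the enzyme of the MSL and NSL complexes that acetylates histone H4, was the 1 gene that fell. The gene (chr7:127912516-127925837, plus strand) was at 154, 74.3, 129 and 143 in NA1 to NA4 and at 206, 261, 162 and 212 in WT1 to WT4. Every NA library was below every WT library, with NA2 far below the other NA libraries. The means were 125 ± 35.4 and 210.1 ± 40.4, with a log2 fold change of -0.78 (SE 0.221, limma adjusted p = 0.0264). The call was lost without NA2 (log2 fold change -0.54, limma adjusted p = 0.0575), WT1 (0.0502), WT2 (0.071) or WT4 (0.0667) and without both NA4 and WT4 (0.106, log2 fold change -0.84). It was also lost with depth as a covariate (0.0557), without a filter on low values (0.056) and without a variance trend (0.0754). Kat8 shares 122 exonic bases with Prss8 on the opposite strand, which averaged 0.462 in NA and 4.05 in WT MPPs. Kat7 (chr11:95274259-95310246, minus strand), which encodes HBO1, was between 482 and 524 in NA and between 506 and 656 in WT libraries. These ranges overlapped, with a log2 fold change of -0.17 (SE 0.102, limma adjusted p = 0.254).

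Hat1, the gene of the enzyme for newly made histone H4, rose in NA MPPs, with a call close to the threshold. The gene (chr2:71388958-71441622, plus strand) was at 430.3, 385, 385 and 464 in NA1 to NA4 and at 341, 325, 279 and 353 in WT1 to WT4. The groups did not overlap. The means were 416 ± 38.4 and 325 ± 32.5, with a log2 fold change of 0.36 (SE 0.116, limma adjusted p = 0.0447). The call stayed past the threshold in 6 of 19 alternative settings. It was lost on leaving out any library other than NA3 (limma adjusted p from 0.056 to 0.149) and without both NA4 and WT4 (0.218, log2 fold change 0.35). It was also lost without a filter on low values (0.0593), without a variance trend (0.085), with depth as a covariate (0.0854), with total-count scaling (0.1, log2 fold change 0.29) and with the GC trend removed (0.151, log2 fold change 0.23).

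**Figure D2:**
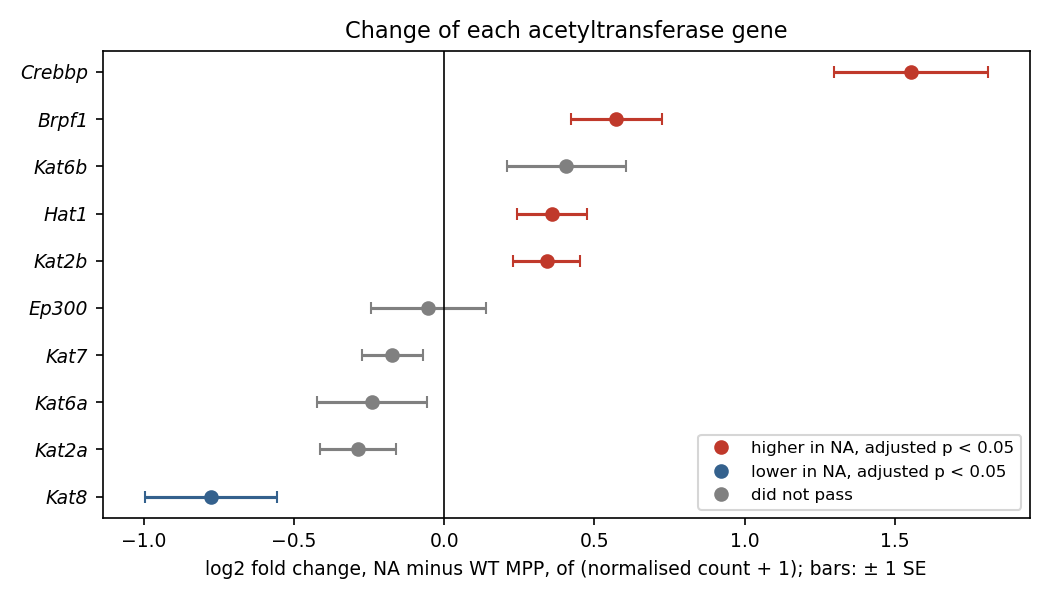
Log2 fold change of each gene (NA minus WT MPP, of normalised count + 1) with bars of 1 SE either side, coloured by direction where the limma adjusted p was below 0.05. Crebbp at 1.55 stands far above the next rise, Brpf1 at 0.57, and Kat8 at -0.78 is the 1 fall that passed.

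**Figure D3:**
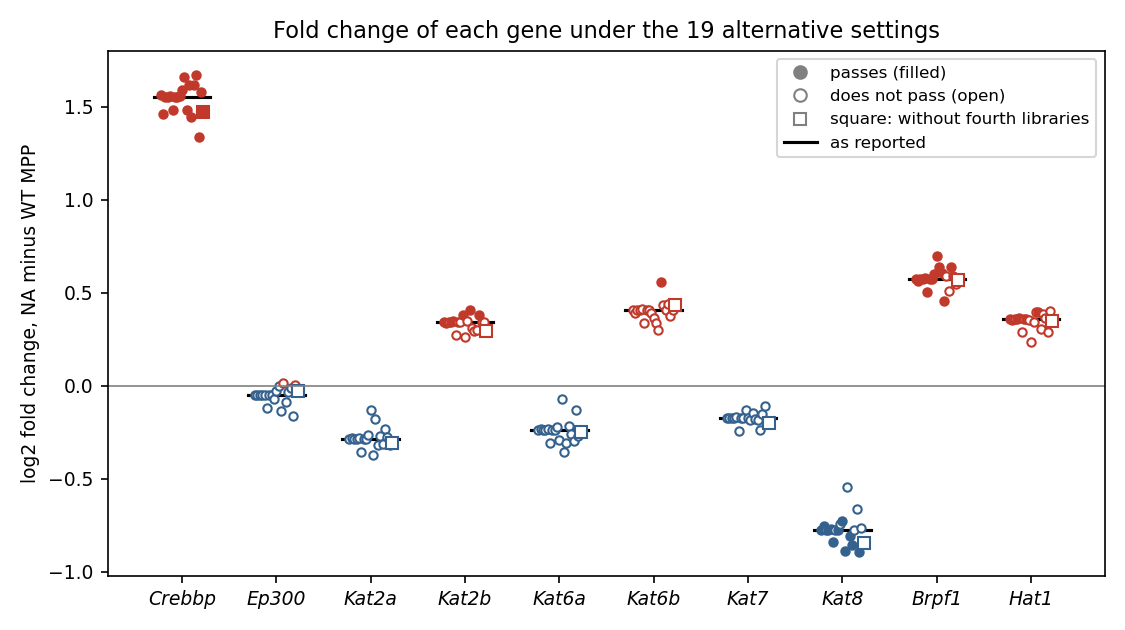
Log2 fold change of each gene (NA minus WT MPP) in each of the 19 alternative settings, filled where it passed and open where it did not, with a square for the fit without the fourth libraries and a black line at the reported value. Crebbp is filled throughout, Brpf1 in 15 settings, Kat8 in 11, Kat2b in 7, Hat1 in 6 and Kat6b in 1, while Ep300 lies on both sides of 0.

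A ratio within a library does not depend on the scaling between libraries, and it shows whether related genes changed unequally. The log2 ratio of Crebbp to Ep300 was 0.15, 0.28, 0.33 and 0.55 in NA1 to NA4 and -1.13, -1.03, -1.57 and -1.37 in WT1 to WT4. Every NA library lay above 0 and every WT library below it. These counts are not divided by transcript length, so 0 does not mark equal levels. Per kilobase of transcript, NA1 was at 8.63 for Crebbp and 8.78 for Ep300. The groups differed by 1.60 (SE 0.147), with an exact two-sided permutation p of 0.0286, the smallest that the 70 assignments of 4 against 4 libraries allow, and 0.0571 after adjustment over the 4 pairs compared. The log2 ratio of Kat2a to Kat2b was 0.09, -0.30, -0.17 and -0.37 in NA1 to NA4 and between 0.33 and 0.48 in WT libraries. The groups did not overlap and differed by -0.63 (SE 0.108, exact permutation p = 0.0286, adjusted 0.0571). The ratio of Kat6a to Kat6b overlapped between the groups, with a difference of -0.65 (SE 0.315, exact permutation p = 0.114, adjusted 0.114). So did that of Kat7 to Kat8, with a difference of 0.60 (SE 0.278, exact permutation p = 0.114, adjusted 0.114). After adjustment 0 of the 4 pairs passed 0.05, and 2 did so before it. With this smallest p, a pair can pass after adjustment only where more than 2 of the 4 pairs reach it. The adjusted count therefore cannot decide whether a single pair changed. Without the fourth libraries the differences were 1.5, -0.60, -0.68 and 0.64 in the same order of pairs, where the smallest exact permutation p that 3 against 3 allow is 0.1. The difference for Kat2a to Kat2b was -0.39 with the GC trend removed, that for Kat6a to Kat6b -0.41 without NA1, and that for Kat7 to Kat8 0.40 without NA2.

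**Figure D4:**
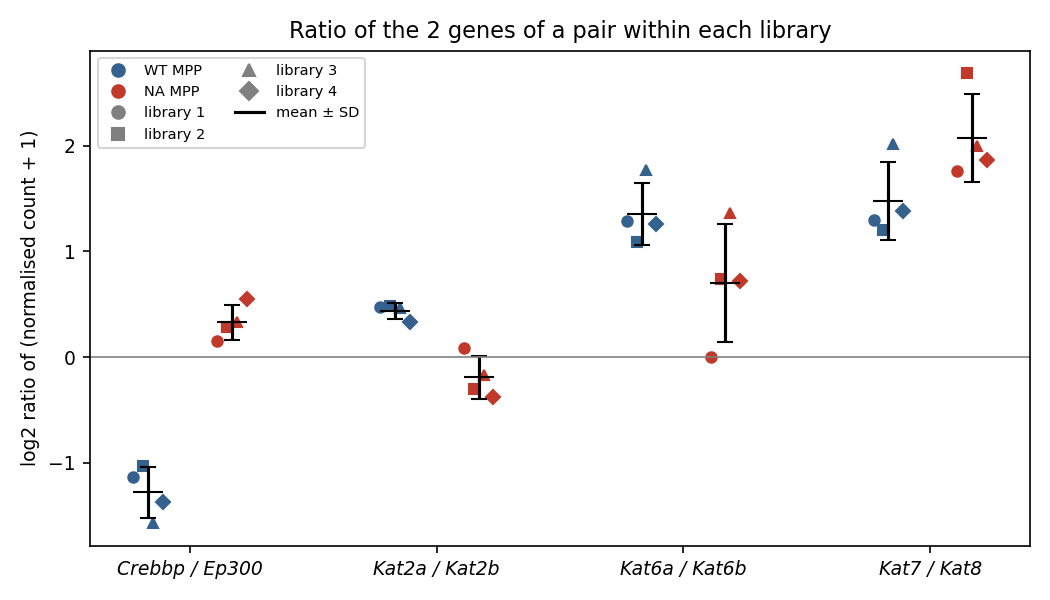
Log2 ratio of (normalised count + 1) of the genes of each pair within each library, with mean ± SD (n = 4). The NA libraries lie above all WT libraries for Crebbp to Ep300 and below them for Kat2a to Kat2b, and the groups overlap for the other 2 pairs.

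Levels of different genes were compared as normalised counts per kilobase of the longest protein-coding transcript. Averaged over the 8 libraries, the order was Hat1 (195), Kat7 (153), Kat2a (134), Kat8 (106), Kat2b (80.3), Brpf1 (43.2), Kat6a (22.5), Kat6b (13), Ep300 (10) and Crebbp (7.42). The 4 genes with the longest transcripts thus had the lowest counts per kilobase. Read coverage along the transcripts was not checked, so this order may differ from that of whole messages. In WT MPPs, neighbours in the order did not overlap from Kat8 down to Kat6b, nor did Ep300 and Crebbp, while Hat1, Kat7, Kat2a and Kat8 overlapped in sequence, as did Kat6b and Ep300. In NA MPPs Hat1 was above Kat7 and Brpf1 above Kat6a without overlap, and all other neighbours overlapped. Kat2b stood above Kat8 in NA and below it in WT MPPs, and Crebbp stood above Ep300 in NA and below it in WT MPPs. Per kilobase of all annotated exons the order over the 8 libraries changed, with Kat2a (117) above Kat7 (98.5), Kat2b (76.7) above Kat8 (58.0) and Ep300 (6.72) above Kat6b (5.97).

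The share of Crebbp in the sum with Ep300 did not overlap between the groups. Per kilobase, Crebbp averaged 11.1 ± 2.40 in NA and 3.77 ± 1.03 in WT MPPs, and Ep300 at 9.84 ± 1.47 and 10.2 ± 1.55. Crebbp made up 49.6%, 51.9%, 52.7% and 56.5% of the sum of the pair in NA1 to NA4 and 28.5%, 30.0%, 22.5% and 25.3% in WT1 to WT4. Kat2a made up 57.2% ± 3.44 of Kat2a and Kat2b in NA and 67.4% ± 1.13 in WT MPPs. The sum over all 10 genes was 762 ± 58.9 in NA and 768 ± 45.1 in WT MPPs, a difference within the spread of the libraries. These shares follow from the counts already tested and were given no test of their own.

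The other genes of histone acetylation were read from 8 lists with 112 genes, of which 107 were tested. Of these 17 rose and 6 fell in NA MPPs (21.5%, against 17.9% of all genes), with a median log2 fold change of 0.04. Without the fourth libraries 5 passed, and these were the rises of Myb, Hdac3, Brd2, Mllt3 and Pdha1. Leaving out NA4 gave 10 rises and 3 falls. The falls numbered 10 without NA1 or without NA3, 3 without WT1 and 2 without WT4. A single left-out library ended the call of 12 of the 23 genes, of which 11 are named below with their range of adjusted p, and 11 passed whichever library was left out.

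Partners of CBP and p300 stood at 3 rises and 1 fall among 11 tested genes (36.4%, median log2 fold change 0.11). Myb, the blood stem and progenitor factor that binds the KIX domain of both enzymes, was at 2652, 3330, 3063 and 3637 in NA1 to NA4 and at 2242, 2023, 2419 and 2281 in WT1 to WT4. The groups did not overlap, and the log2 fold change was 0.49 (SE 0.0964, limma adjusted p = 0.00333). Atf1 and Creb1, which encode phosphorylation-dependent factors that recruit CBP, rose by 0.48 and 0.31 on the log2 scale (limma adjusted p = 0.0129 and 0.0379). Crtc1, a co-activator of CREB, fell by 0.55 (limma adjusted p = 0.0238). Atf1 did not pass without NA4 (0.0531), Crtc1 without NA4, WT1 or WT4 (0.0615 to 0.0822) and Creb1 without NA1, NA2, NA4, WT1, WT2 or WT4 (0.0618 to 0.118). Cited1, Cited4 and Carm1 were too low to test.

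Among the other acetyltransferases, 2 of 12 genes rose and 0 fell (16.7%, median -0.08). Naa40, the N-terminal acetyltransferase of histones H2A and H4, averaged 172 ± 48.5 in NA and 74.8 ± 29.2 in WT MPPs, a log2 fold change of 1.22 (SE 0.280, limma adjusted p = 0.00858). Ncoa3, a nuclear receptor co-activator that recruits CBP and p300, was at 268 ± 11.8 and 185 ± 30.1, a log2 fold change of 0.54 (SE 0.136, limma adjusted p = 0.0144). The latter call was lost without NA4 (0.0501).

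Subunits of the MYST complexes had 3 rises and 1 fall among 19 genes (21.1%, median 0.02). Ing3 of the TIP60 complex rose by 0.95 on the log2 scale (limma adjusted p = 0.00875), Msl2 of the MOF-containing MSL complex by 0.55 (0.0272) and Jade1, a scaffold of HBO1 complexes, by 0.54 (0.00516). Ing4, a subunit of HBO1 complexes, fell by 0.39 (limma adjusted p = 0.0108). Msl2 did not pass without NA2, NA4 or WT3 (0.0637 to 0.0947). In SAGA and ATAC, which hold GCN5 and PCAF, 1 gene rose and 1 fell among 23 (8.7%, median -0.04). Tada2a, an ATAC adaptor subunit, averaged 62.7 ± 7.73 in NA and 121 ± 24.3 in WT MPPs and fell by 0.92 (SE 0.205, limma adjusted p = 0.00741). Trrap, the large subunit shared by SAGA and the TIP60 complex, rose by 0.54 (limma adjusted p = 0.0292) and did not pass without NA2, NA3, NA4, WT3 or WT4 (0.0541 to 0.0829). In the list of chaperones that work with HAT1 on new histones, 0 of 8 genes rose and 1 fell (12.5%, median 0.02). That gene was Ipo4, an importer of new histones, which fell by 0.54 (limma adjusted p = 0.0273) and did not pass without NA2, NA4, WT1 or WT4 (0.0649 to 0.0835).

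Deacetylases had 2 rises and 1 fall among 17 tested genes (17.6%, median 0.02), with Hdac8 too low to test. Hdac3, the catalytic subunit of the NCoR and SMRT complexes, was at 702, 643, 660 and 697 in NA1 to NA4 and at 275, 370.3, 299 and 312 in WT1 to WT4. The groups lay far apart, with a log2 fold change of 1.11 (SE 0.109, limma adjusted p = 1.43e-05). Hdac4, a class II deacetylase, was low in both groups, at 52.7 ± 11.7 in NA and 12.9 ± 6.84 in WT MPPs, with a log2 fold change of 2.09 (SE 0.417, limma adjusted p = 0.00382). Hdac1 fell by 0.48 (limma adjusted p = 0.0407) and did not pass without NA2, NA3, NA4, WT1, WT3 or WT4 (0.0601 to 0.115).

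Readers of acetyl-lysine had 5 rises and 0 falls among 11 tested genes (45.5%, median 0.04), with Dpf1 too low to test. Brd2, a BET bromodomain gene, averaged 720 ± 63.3 in NA and 490 ± 57.6 in WT MPPs (log2 fold change 0.56, limma adjusted p = 0.00287), while the related Brd3 rose by 0.44 (0.0177). Mllt3, which encodes the YEATS protein AF9, rose by 0.55 (limma adjusted p = 0.00183), and Phf10, a subunit of the PBAF remodelling complex, by 0.57 (0.0241). Brd3 did not pass without NA4 (0.0566) and Phf10 without NA2, NA4, WT2 or WT3 (0.0582 to 0.0951). In the acetyl-CoA supply list 1 gene rose and 1 fell among 6 (33.3%, median 0.07). Pdha1, an X-linked subunit of pyruvate dehydrogenase, rose by 0.43 (limma adjusted p = 0.00259), and Acss2, which makes acetyl-CoA from acetate, fell by 0.43 (0.0163) but did not pass without WT4 (0.0633). Each list held genes on both sides of 0, and all list medians lay between -0.08 and 0.11.

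**Figure D5:**
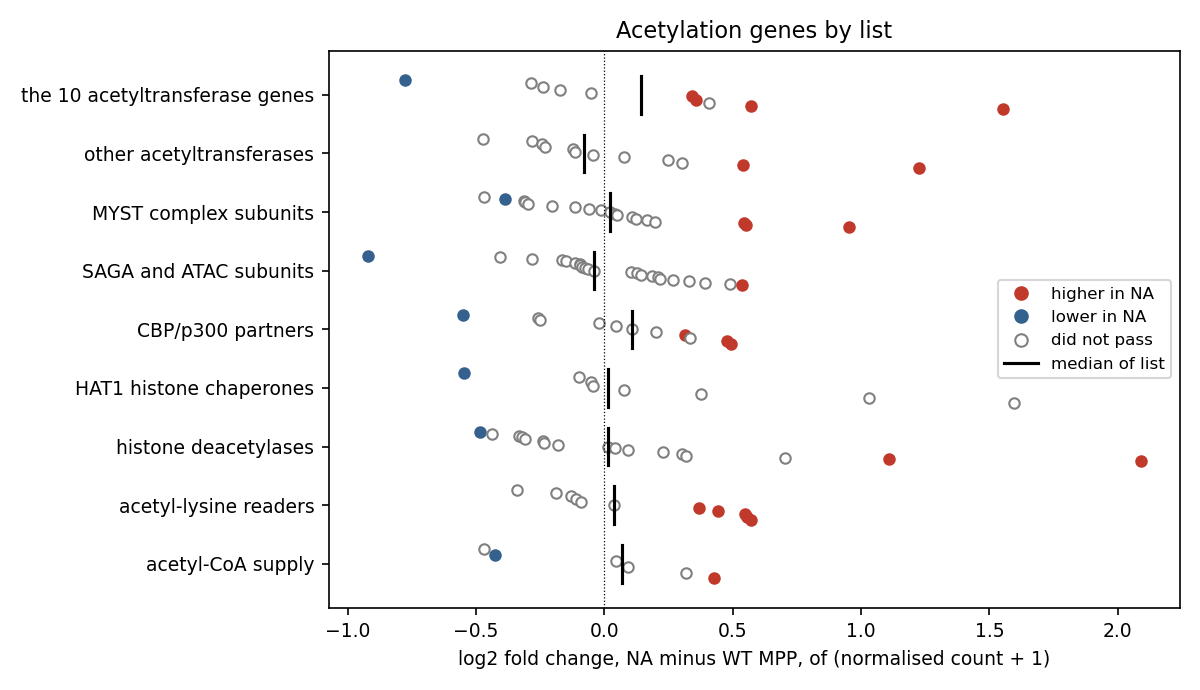
Log2 fold change (NA minus WT MPP, of normalised count + 1) of each tested gene of the 10 acetyltransferase genes and the 8 lists, filled red or blue where it rose or fell at a limma adjusted p below 0.05, with a bar at each list's median. The medians lie near 0, and Crebbp at 1.55 in the top row and Hdac4 at 2.09 among the deacetylases lie furthest right among genes that passed.

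Over the 8 libraries, the genes whose log2 values followed those of Crebbp most closely, among 9000 genes with a mean of at least 50, were March7 (Pearson r = 0.994), Ddx4 (0.990) and Kmt2a (0.987). All 3 had higher means in NA MPPs. Kmt2a, which encodes the histone methyltransferase MLL1, averaged 837 ± 40.6 in NA and 544 ± 88.0 in WT MPPs. For Ep300 they were Zup1 (r = 0.974), Ttc37 (0.970) and Ppp2r1b (0.942), whose means differed little between the groups, as with Zup1 at 190 ± 51.0 and 198 ± 51.5. These correlations describe 8 libraries that share 2 groups and their depths, and carry no test.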

How the data were processed

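RNA from 4 NA and 4 WT MPP libraries was analysed. Per the labels and methods, the authors amplified polyadenylated RNA as cDNA, made Nextera XT libraries, sequenced them on a NextSeq instrument and quantified genes with RSEM. The authors' processing notes name bcl2fastq, DESeq2 and mm10. Versions, annotation and strand use are not given in the sources used here. The deposited values are a normalised signal: expected counts divided by 1 size factor per library, with 98.6% to 99.0% of values within 0.1 of a whole read. They are amplified reads, not independent molecules.

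Genes reaching 10 normalised counts in at least 4 of 8 libraries were tested with limma 3.58.1 (R 4.3.3) on log2(normalised count + 1) with a variance trend, without covariates, with Benjamini-Hochberg adjustment over 11451 genes and a threshold of 0.05. The script was tested on simulated data. Pair ratios were tested by exact permutation in Python 3.11.15 with scipy 1.17.1. The planned count tests were not run, because fractional assignments below 1 read remained. Symbols, positions and transcript lengths came from GENCODE M21, and promoters from RefSeq.

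Members and lists were chosen with earlier results of these data known. Named genes were the 10 members, up to 3 rises and 3 falls of each list, list genes in counts of 5 or fewer, and the 3 genes most correlated with Crebbp and with Ep300. The other values in the report named for the sort, sex and other cell types are checks, of which the sex-linked genes were chosen after their values were seen. Alternatives changed the pseudocount (0.5 and 5), filter, scaling, trend, covariates and libraries. Values of 1 list gene and 1 marker are not reported here.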

Additional observations from a re-analysis of the deposited data

Results flagged for a closer look

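In 30 sets of 4 libraries of 1 group, 3 held a library whose gap to the nearest of the others, divided by the range, was above Dixon's critical value for 4 values, where chance gives about 1.5. Kat7 was at 482 normalised counts in NA2 and between 517 and 524 in the other NA libraries. The log2 ratio of Kat2a to Kat2b was 0.328 in WT4 and between 0.463 and 0.484 in the other WT libraries. NA4 held 3888000 estimated reads, rounded, and the other NA libraries between 4909000 and 4917000.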

How the results depend on the processing

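Crebbp passed in all 19 alternative settings. Of the 10 acetyltransferase genes, 2 passed without a filter on low values (2 higher, 0 lower) and without a variance trend (2 and 0), 3 with total-count scaling (2 and 1), with the GC trend removed (2 and 1) and with depth as a covariate (3 and 0), and 1 without the fourth libraries (1 and 0). With 1 library left out, 1 to 5 passed, 1 to 4 higher and 0 to 1 lower. All 5 passed with either pseudocount, a mean of at least 50 and TMM scaling. Ep300 ranged from -0.17 to 0.01 with 1 library left out and reversed without NA3 (0.0138) and WT4 (0.00474).

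Over all genes, 2053 passed, 1152 higher and 901 lower. Without a variance trend 1420 passed, of which 595 were lower. Without a filter on low values, which tests more genes, 1702 passed. With the GC trend removed 1894 passed, and with depth as a covariate 1571. With either pseudocount, a mean of at least 50 or TMM scaling, 1959 to 2115 passed. Without the fourth libraries 515 passed, 370 higher and 145 lower, and with 1 library left out 1106 to 2141, 656 to 1160 higher and 450 to 996 lower. With total-count scaling 2240 passed, 927 higher and 1313 lower, and the median of all genes moved from -0.01 to -0.08. Among the list genes, 14 passed without a trend, 10 of them higher, and total-count scaling gave 14 lower. Without the fourth libraries 5 passed, 5 higher and 0 lower, and with 1 library left out 13 to 28, 10 to 18 higher and 2 to 10 lower.

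Deviations of same-numbered libraries correlated at 0.0874, 0.0271, 0.0131 and 0.158, and those of differently numbered ones at -0.0943 to 0.101. NA1 and NA4 correlated best with their own number, and NA2 and NA3 with another. Whether the replicate numbers pair the libraries was not tested. With the replicate block 2004 genes passed, 1145 of them higher, and Kat2b did not pass. Pair ratios kept their direction in all 13 settings of each pair, with sizes that fell most for Kat2a to Kat2b with the GC trend removed (-0.39), Kat6a to Kat6b without NA1 (-0.41) and Kat7 to Kat8 without NA2 (0.40), but the exact permutation test of 3 libraries against 4 cannot go below p = 0.0571, of 3 against 3 below 0.1, or of 4 flipped pairs below 0.125.

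Per kilobase of all annotated exons, levels moved to 6.72 for Ep300, 5.97 for Kat6b, 98.5 for Kat7, 58.0 for Kat8, 30.8 for Brpf1 and 128 for Hat1, because annotated exons exceed the longest transcript, and the order of 3 neighbouring pairs changed. The planned edgeR and DESeq2 fits were not run. Elsewhere the cause of a change was not tested. Crebbp rests on few reads (22 to 51 in WT libraries), which limits its precision.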
